A study of Mus musculus with 30 samples.

Results

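The genes described here are 10 genes for the enzymes and the chaperone that modify, fold and crosslink collagen. They are the lysyl oxidases Lox, Loxl1, Loxl2, Loxl3 and Loxl4, the lysyl hydroxylases Plod1, Plod2 and Plod3, the prolyl 4-hydroxylase subunit P4ha3 and the collagen chaperone Serpinh1. They were picked out of the 55487 genes of the count files by symbol. The rule itself uses no measured value, but the set was put together with earlier results of these data known. Each symbol matched 1 row. All 10 passed the filter on low counts (a mean of at least 1 read over the libraries fitted together).

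New collagen chains are modified inside the cell before they leave it. Prolyl 4-hydroxylases hydroxylate prolines, which makes the triple helix stable, lysyl hydroxylases hydroxylate lysines, and the chaperone encoded by Serpinh1 (HSP47) binds the folded helix in the endoplasmic reticulum. Outside the cell, lysyl oxidases convert lysines and hydroxylysines into aldehydes, which join neighbouring collagen or elastin molecules into crosslinks. In the lung these crosslinks are known for giving elastic fibres their recoil and fibrotic scar its stiffness.

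Lung organoids were grown from primary CD45-/CD31-/Epcam+ cells of wild type C57BL/6J mice (adult, male and female) mixed with CCL206, a mouse lung fibroblast line, whose division had been stopped with mitomycin C. Cultures were exposed for 72 h to vehicle, to the exacerbation cocktail EC, to the idiopathic pulmonary fibrosis cocktail IPFc or to TGFb at 2 ng/ml. EC holds 4 factors, IL-6, IL-8 (KC for mouse cells), IL-1β and TNFα. IPFc holds 9 factors, namely TGF-β, TSLP, TNFα and CCL2 with the interleukins IL-33, IL-13, IL-8, IL-4 and IL-1β, at doses not given in the sources used here. The cells were then separated with Epcam microbeads into Epcam+ cells (epithelial fraction) and Epcam- cells (fibroblast fraction), and each fraction was sequenced as bulk RNA. The 30 libraries from 4 mice comprised 4 epithelial libraries each for vehicle, EC and IPFc and 3 for TGFb, and 3 fibroblast libraries for vehicle and 4 each for EC, IPFc and TGFb. The epithelial TGFb culture of mouse 1 and the fibroblast vehicle culture of mouse 2 were not analysed here. All fibroblasts came from the same line, so the mouse number sets the epithelial donor and the culture, and all groups shared the co-culture and the mitomycin-treated fibroblasts. The medium of these cultures held the ROCK inhibitor Y-27632, as the methods describe for the vehicle and EC cultures.

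The libraries held 8275413 to 20317181 counted reads, except the fibroblast EC library of mouse 1, which held 5113828. Levels are given as CPM, counts scaled to a common library size by TMM normalization. Libraries of each fraction also held reads of the other fraction's markers, at levels that varied between the groups. The level of 25 fibroblast markers in an epithelial library, as a percent of their level in the fibroblast library of the same culture (median over those with at least 50 CPM there), was 6.10% ± 2.30 (SD, n = 4) with vehicle, 12.1% ± 4.83 (n = 4) with EC, 11.4% ± 4.53 (n = 4) with IPFc and 26.5% ± 3.53 (n = 3) with TGFb. The 20 epithelial markers in fibroblast libraries, taken the same way, stood at 18.1% ± 6.34 (n = 3), 39.5% ± 8.43 (n = 4), 16.6% ± 8.10 (n = 4) and 2.14% ± 1.23 (n = 4) in the same order. The rise in the epithelial TGFb libraries, the rise in the fibroblast EC libraries and the fall in the fibroblast TGFb libraries each gave an exact two-sided permutation p of 0.0286 (adjusted 0.0571 over 6 comparisons), the smallest that these group sizes allow. The epithelial differences with EC and IPFc gave 0.0857 and 0.114 in this test, which does not pair the mice, although the share was higher than with vehicle in 4 of 4 mice with each, and the fibroblast difference with IPFc gave 0.686. The percent of the other fraction's marker level is called the marker share below, and some markers may themselves respond to the exposures. The fibroblast markers Thy1 and Tcf21 had no or almost no reads in either fraction, and 12 immune markers summed to at most 22.8 CPM and 10 endothelial markers to at most 4.46 CPM in any library.

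**Figure D1:**
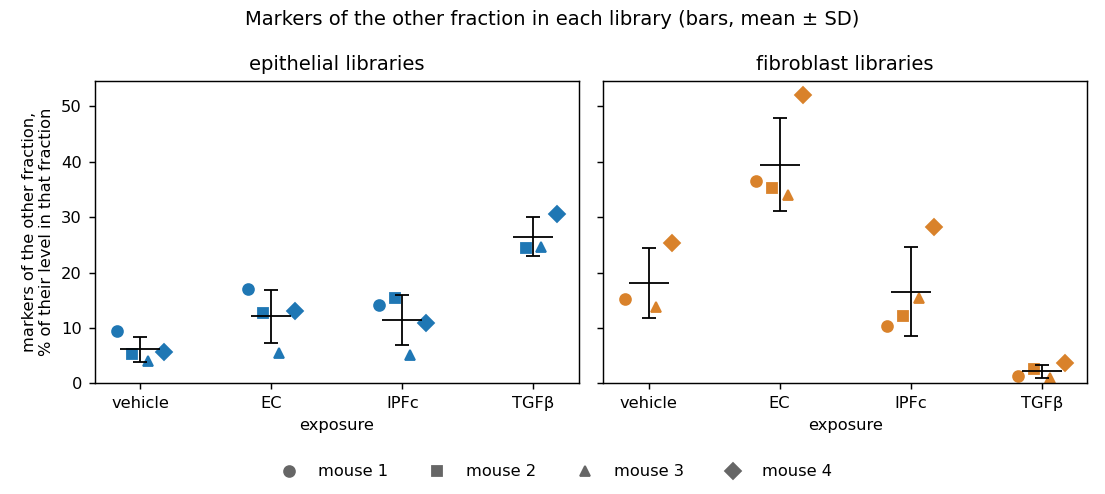
Markers of the other fraction in each library, as a percent of their level in that fraction (vertical axis), by exposure (horizontal axis). Points are libraries shaped by mouse and bars give mean ± SD. Fibroblast markers reached 24.4 to 30.6% in the 3 epithelial TGFb libraries, and epithelial markers reached 34.0 to 52.0% in the 4 fibroblast EC libraries.

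Promoters are shown for 4 of the genes, as examples of genes that rose with TGFb in both fractions (Serpinh1 and Plod1), that was not called between fractions (Loxl4) and that was not called against vehicle with the filter and the 15 libraries of a fraction used throughout (Plod3). They leave out the genes with the largest changes. RefSeq promoter windows (assembly GRCm38.p6) matched 5 of the 10 genes, and the 250 bases before the annotated start are printed for all but P4ha3, whose window runs into the annotated gene, 5′ to 3′ on the gene's strand. Capitals mark CAGAC or its reverse complement GTCTG, the short box bound by SMAD proteins, the transcription factors of the TGF-β pathway.
Serpinh1 (chr7:99353240-99353489, minus strand): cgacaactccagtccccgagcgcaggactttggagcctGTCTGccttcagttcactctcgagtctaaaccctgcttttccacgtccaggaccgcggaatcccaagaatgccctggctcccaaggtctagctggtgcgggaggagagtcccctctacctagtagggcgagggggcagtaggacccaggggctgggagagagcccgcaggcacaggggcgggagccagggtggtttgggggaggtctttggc
Plod1 (chr4:147936777-147937026, minus strand): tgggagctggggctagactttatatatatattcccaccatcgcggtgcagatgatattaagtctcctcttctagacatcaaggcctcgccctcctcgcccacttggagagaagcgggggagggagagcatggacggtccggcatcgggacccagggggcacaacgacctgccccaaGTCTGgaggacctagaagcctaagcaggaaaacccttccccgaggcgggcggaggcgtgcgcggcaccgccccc
Plod3 (chr5:136986769-136987018, plus strand): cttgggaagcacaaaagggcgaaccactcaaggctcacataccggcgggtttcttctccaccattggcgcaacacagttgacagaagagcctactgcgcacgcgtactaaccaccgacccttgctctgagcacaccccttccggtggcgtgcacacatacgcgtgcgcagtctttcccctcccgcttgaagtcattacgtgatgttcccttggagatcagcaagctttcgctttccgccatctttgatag
Loxl4 (chr19:42612807-42613056, minus strand): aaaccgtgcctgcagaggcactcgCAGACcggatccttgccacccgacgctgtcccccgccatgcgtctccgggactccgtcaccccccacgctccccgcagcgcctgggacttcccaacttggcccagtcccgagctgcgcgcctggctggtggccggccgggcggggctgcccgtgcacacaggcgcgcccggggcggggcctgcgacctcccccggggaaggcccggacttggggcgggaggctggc

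The windows of Serpinh1, Plod1 and Loxl4 each held 1 such box on either strand, and those of Plod3 and of P4ha3, which rose most of the 5 with TGFb in the epithelial fraction, held none, while 42.2% of 32841 promoters of this length held at least 1. The GC box GGGCGG, searched on both strands, was present in 4 of the 5 windows, with 5 partly overlapping matches in P4ha3, 3 in Loxl4, 2 in Plod1, 1 in Serpinh1 and none in Plod3. Of all promoters 32.7% held it. The 4 windows with it had a GC content of 61.6 to 76% and that of Plod3 55.6%, against a median of 52.4% over all promoters. The hypoxia response core ACGTG occurred once each in Serpinh1 and Plod3 and in 16.6% of all promoters, and the CCAAT box (CCAAT) once in Plod3 and in 33.9% of all. No window held TGANTCA, the AP-1 motif (6.75% of all), or GAANNTTC, a pair of heat shock units (6.7% of all). These matches describe letters only.

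To show which of these genes each fraction carried without any added factor, levels were first compared in vehicle. Per kilobase of transcript, Serpinh1 had the highest mean level of the members in every group (overlapping with Plod3 over epithelial EC libraries), at 40.7 CPM per kb in epithelial and 219 CPM per kb in fibroblast vehicle libraries. In the fibroblast fraction Loxl1 (55.1 CPM per kb) and Plod3 (51.3) came next and overlapped over libraries, followed by Loxl3 (32.3), then Lox (21.1) and Plod2 (20.6), which overlapped, then Plod1 (7.56). P4ha3 (3.78 CPM per kb), Loxl2 (3.64) and Loxl4 (3.18) closed the order and overlapped. In the epithelial fraction Plod3 (26.1 CPM per kb) stood next to Serpinh1, and Plod2 (3.83), Loxl4 (3.33), Loxl1 (2.80), Plod1 (2.60), Lox (1.99) and Loxl3 (1.92) formed a run in which each gene overlapped with the next. P4ha3 (0.407 CPM per kb) and Loxl2 (0.175) were lowest there.

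With vehicle, 9 of the 10 genes were higher in the fibroblast than in the epithelial fraction and none was lower, where 28.2% of all 18364 genes tested were higher and 27.8% lower. The median log2 difference of the 10 genes was 2.89, beside -0.0221 over all genes. The largest differences were those of the lysyl oxidases Loxl2 (log2 difference 4.41, SE 0.34, adjusted p = 1.9e-11), Loxl1 (4.33, SE 0.33), Loxl3 (4.17, SE 0.29) and Lox (3.43, SE 0.21), and the smallest that passed was Plod3 (0.96, SE 0.10, adjusted p = 4.5e-09). P4ha3 differed by 3.34 (SE 0.35), Plod2 by 2.45 (SE 0.19), Serpinh1 by 2.44 (SE 0.18) and Plod1 by 1.55 (SE 0.14). The same 9 genes were higher in the fibroblast fraction with EC (25.1% of all genes higher, 24% lower), with IPFc (28.7% higher, 29.5% lower) and with TGFb (22.3% higher, 26% lower). The median difference of the members was 2.62 with EC, 2.23 with IPFc and 1.15 with TGFb, beside -0.0127, -0.0286 and -0.0236 over all genes. With TGFb Lox overlapped between the fractions (log2 difference 0.51, SE 0.20, adjusted p = 0.0366), and its call was lost without mouse 1, 2 or 4 (adjusted p of 0.0754, 0.253 and 0.0520) and after the subtraction described below (0.388). In bulk samples, fewer cells of a type and less RNA per cell cannot be told apart.

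Loxl4 (chr19:42592279-42612806 in GRCm38.p6), a lysyl oxidase of the branch with scavenger receptor domains, was the exception. Its epithelial vehicle libraries of mice 1 to 4 held 19.1, 16.3, 19.4 and 17.8 CPM, and its fibroblast vehicle libraries of mice 1, 3 and 4 held 13.8, 17.3 and 20.9 CPM. The fractions overlapped in every exposure. The fibroblast minus epithelial log2 difference was -0.05 with vehicle (95% interval -0.46 to 0.35), 0.23 with EC, 0.27 with IPFc and 0.05 with TGFb, with adjusted p-values of 0.214 to 0.843. Without mouse 1, whose fibroblast EC library was the shallow one, Loxl4 passed with EC and with IPFc. The epithelial level was 66.6 to 177% of the fibroblast level of the same culture, above the marker share in all 15 epithelial libraries. Plod3, at 43.9 to 62.4%, and Plod1, at 23.9 to 54.5%, were also above the marker share in all 15. Loxl1 was above it in 4 of the 15, Loxl2 in 11 and Loxl3 in 11.

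**Figure D2:**
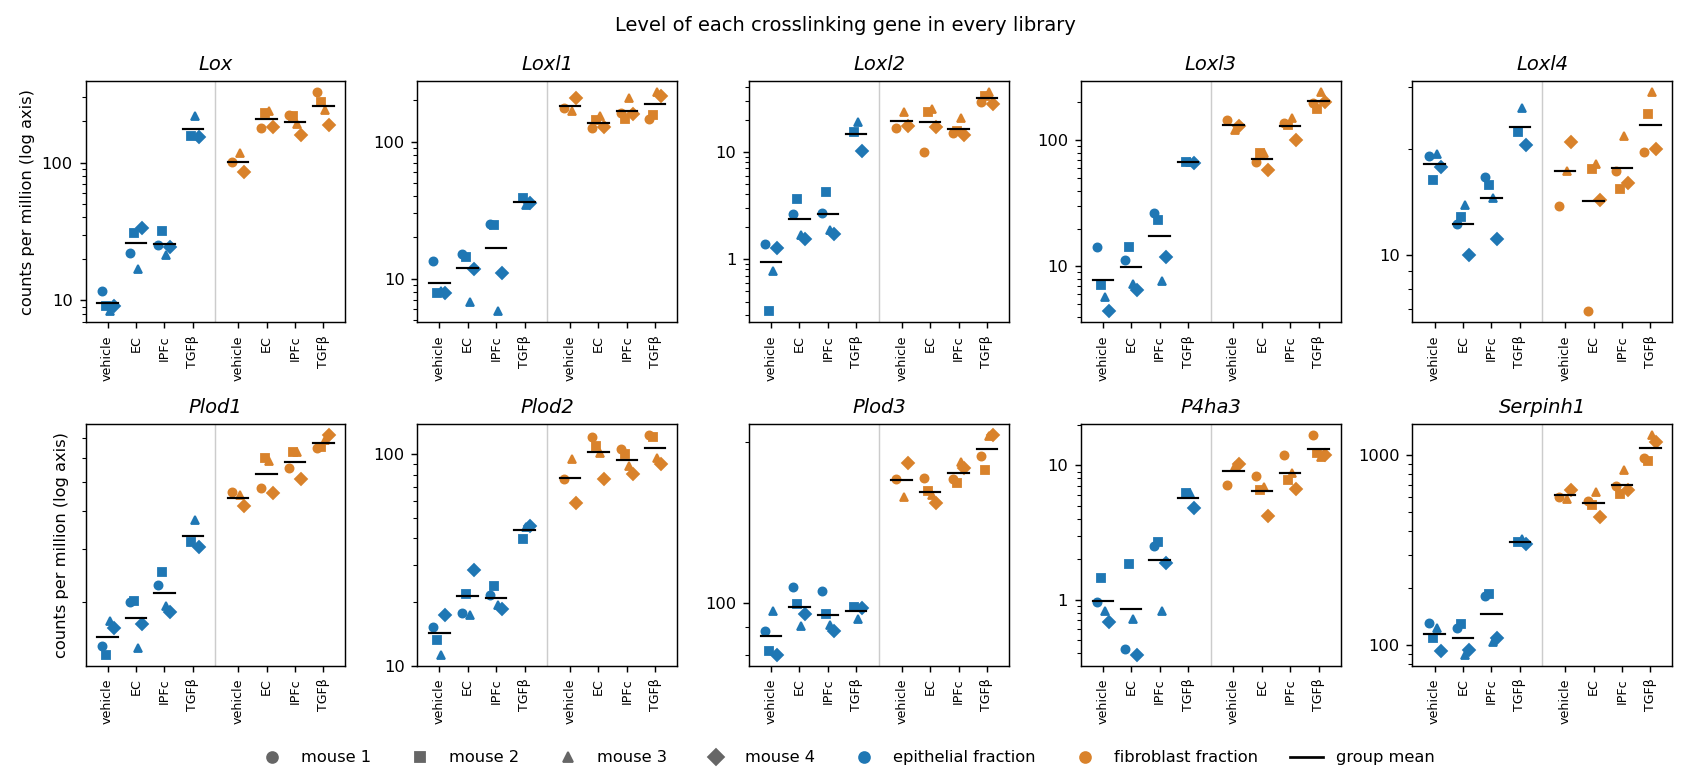
CPM of each gene (vertical log axis, each panel on its own range) in the 30 libraries, by fraction and exposure (horizontal axis). Points are libraries shaped by mouse and black lines are group means. Except for Loxl4, all vehicle epithelial libraries lie below all vehicle fibroblast libraries.

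The question for TGFb was how far a single profibrotic factor changed these genes in each fraction. In the epithelial fraction 9 of the 10 genes rose and none fell, where 21% of the 18024 genes tested were called higher and 20.1% lower. The median log2 fold change was 1.99 for the members and 0.0336 for all genes. Levels of 8 genes in the 3 TGFb libraries lay above all 4 vehicle libraries with fold changes over 2, and Loxl4 rose by less. The share of all genes whose libraries lay apart in this way was not counted, in this or any other comparison.

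Lox, which encodes the founding member of the lysyl oxidase family, and Loxl2 had the highest fold changes, with overlapping 95% intervals of the log2 values (3.84 to 4.69 and 3.34 to 4.86). For Lox the epithelial vehicle libraries held 11.6, 9.06, 8.33 and 9.05 CPM (mice 1 to 4), and the TGFb libraries held 155, 217 and 153 CPM (mice 2 to 4). That was a 19.2-fold rise (log2 fold change 4.26, SE 0.20, adjusted p = 2.1e-12). In the TGFb cultures the epithelial level of Lox was 56.4 to 89.97% of the fibroblast level, against a marker share of 24.4 to 30.6%. Levels were also computed after the other fraction's share of each gene had been subtracted, which adds no error for the share itself. After this subtraction Lox still stood at 123 to 216 CPM with TGFb against 2.46 to 4.45 CPM with vehicle (log2 fold change 4.98, adjusted p = 0.00088).

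Loxl2 (chr14:69608692-69695834), known for acting on collagen IV of basement membranes, held 1.37, 0.324, 0.771 and 1.27 CPM with vehicle (15 to 20 reads, and 4 in mouse 2) and 15.2, 19.1 and 10.2 CPM with TGFb. It rose 17.1-fold (log2 fold change 4.10, SE 0.36, adjusted p = 1.4e-08). Its epithelial level was 36.2 to 52.6% of the fibroblast level, above the marker share in 3 of 3 cultures. After subtraction it was at 0 in 3 of the 4 vehicle libraries and at 2.42 to 13.9 CPM in the TGFb libraries.

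Loxl3 (chr6:83034205-83052566), a further lysyl oxidase-like gene, held 14.2, 7.12, 5.76 and 4.40 CPM with vehicle. With TGFb it held 67.1, 67.3 and 66.6 CPM, and rose 11.1-fold (log2 fold change 3.48, SE 0.23, adjusted p = 2.1e-10). Its epithelial level was 27.8 to 37.5% of the fibroblast level, above the median of the marker ratios in 3 of 3 cultures and above their upper quartile in 1. After subtraction 0 to 0.859 CPM remained with vehicle and 8.46 to 32.8 CPM with TGFb (adjusted p = 0.0067).

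P4ha3 (chr7:100285489-100319701), a catalytic subunit of prolyl 4-hydroxylase, was the least abundant hydroxylase gene of the 4. Its vehicle libraries held 0.957, 1.46, 0.822 and 0.677 CPM and its TGFb libraries 6.20, 6.20 and 4.84 CPM. The rise was 6.25-fold (log2 fold change 2.64, SE 0.39, adjusted p = 1.4e-05). The level was 40.3 to 53.6% of that in fibroblasts, above the marker share in 3 of 3 cultures, and the call was kept after subtraction (log2 fold change 2.93, adjusted p = 0.021).

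Loxl1 (chr9:58287723-58313212), the lysyl oxidase known for elastic fibres, held 13.5, 7.85, 8.07 and 7.87 CPM with vehicle and 39.0, 34.5 and 35.8 CPM with TGFb. It rose 4.67-fold (log2 fold change 2.22, SE 0.24, adjusted p = 2.5e-07). Here the epithelial level was 14.998 to 24.9% of the fibroblast level and exceeded the marker share in 1 of 3 cultures. After subtraction 2 of the 3 TGFb libraries and 3 of the 4 vehicle libraries were at 0.

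Serpinh1 (chr7:99345375-99353239) held 132, 109.6, 123 and 93.8 CPM with vehicle and 351, 363 and 339 CPM with TGFb, a 3.37-fold rise (log2 fold change 1.75, SE 0.13, adjusted p = 1.7e-09). The epithelial level was 28.5 to 37.6% of the fibroblast level, above the marker share in 2 of 3 cultures. After subtraction the vehicle libraries held 59.97 to 103 CPM and the TGFb libraries 0 to 172 CPM, which overlapped (adjusted p = 0.63).

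The lysyl hydroxylases differed among themselves. Plod2 (chr9:92539636-92608428), which acts on the ends of the collagen chain, held 15.2, 13.3, 11.3 and 17.4 CPM with vehicle and 40.0, 45.5 and 45.7 CPM with TGFb. It rose 3.17-fold (log2 fold change 1.66, SE 0.15, adjusted p = 2.6e-08). Plod1 (chr4:147909753-147936776), which acts on the helical part, held 14.2, 13.4, 17.3 and 16.4 CPM with vehicle and 31.6, 37.5 and 30.5 CPM with TGFb, a 2.25-fold rise (log2 fold change 1.17, SE 0.15, adjusted p = 2.2e-06). Both groups lay apart for both genes. After subtraction Plod2 gave a log2 fold change of 0.84 (adjusted p = 0.39) and Plod1 of 0.62 (adjusted p = 0.053).

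Plod3 (chr5:136987019-136996646), which also carries a collagen glucosyltransferase activity, did not pass. It held 88.7, 81.3, 96.7 and 80.0 CPM with vehicle and 98.1, 93.4 and 98.0 CPM with TGFb, which overlapped (log2 fold change 0.23, SE 0.09, adjusted p = 0.0516). After subtraction its log2 fold change was -0.35 (adjusted p = 0.038). The subtraction took 24.4 to 30.6% of the fibroblast level from TGFb libraries and 4.03 to 9.39% from vehicle libraries. The value after it is therefore not a measured fall. Loxl4 held 22.3, 26.3 and 20.6 CPM with TGFb, just above its vehicle libraries, and rose 1.33-fold (log2 fold change 0.41, SE 0.13, adjusted p = 0.0174). The call was lost without mouse 2 (adjusted p = 0.114) or mouse 3 (0.102), and Plod3 passed without mouse 3 (0.0239). The value of Loxl4 after subtraction was 0.42 (adjusted p = 0.0599).

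**Figure D3:**
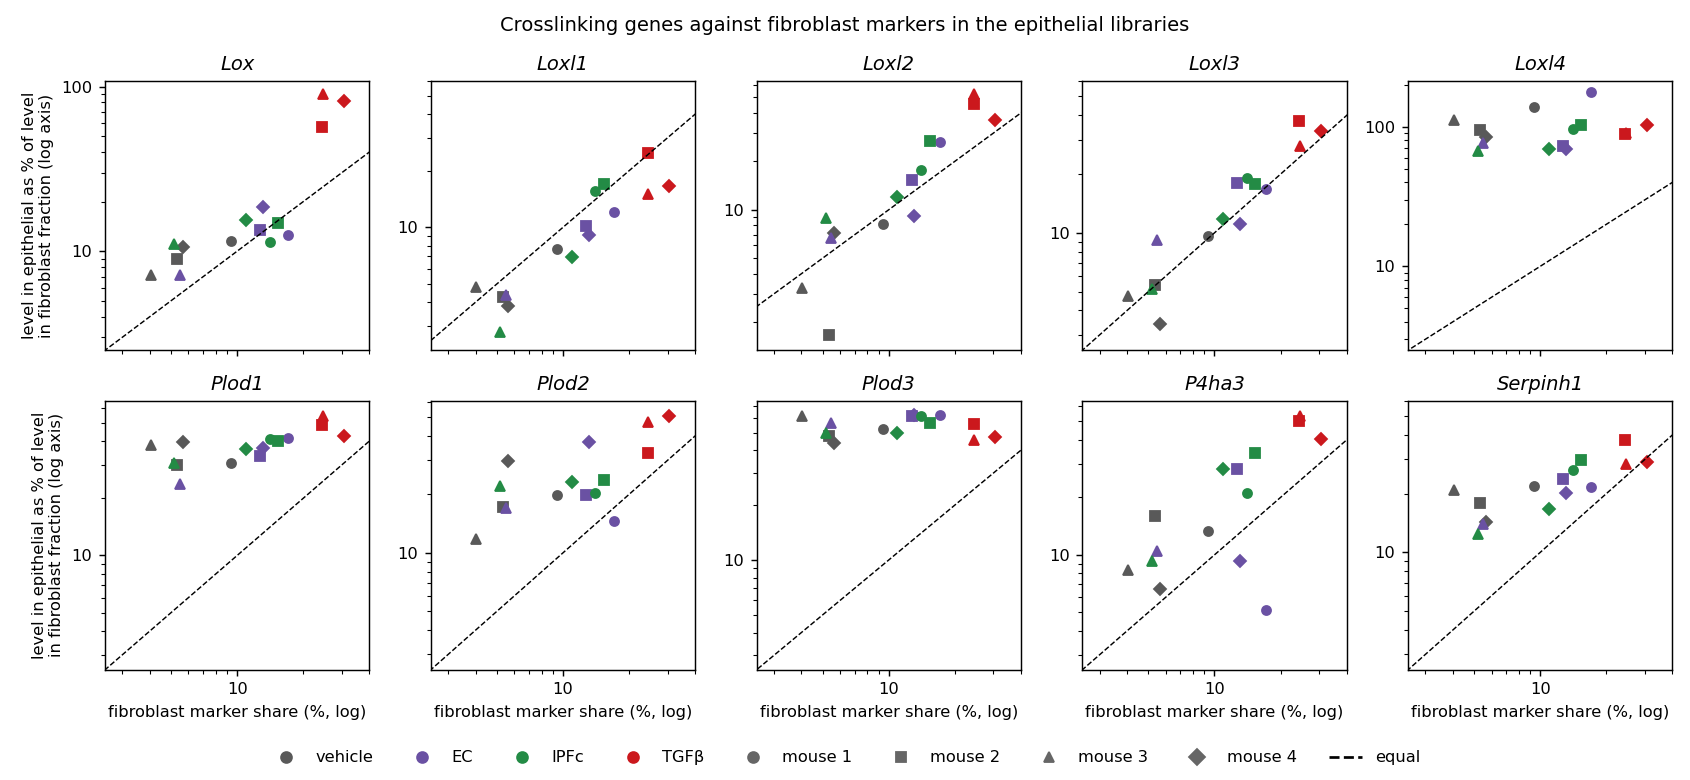
Level of each gene in the epithelial library as a percent of its level in the fibroblast library of the same culture (vertical log axis, own range in each panel), against the fibroblast marker share of that library (horizontal log axis), for 15 cultures colored by exposure and shaped by mouse. The dashed line marks equality. For the vehicle library of mouse 2, whose partner was not analysed here, the fibroblast group mean was used. Lox in the 3 TGFb cultures lies at 56.4 to 89.97%, above the line, and Loxl4 lies above the line in all cultures.

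In the fibroblast fraction 6 of the 10 genes rose with TGFb and none fell, where 6.39% of the 18048 genes tested were called higher and 12.8% lower. The median log2 fold change was 0.614 for the members and -0.0160 for all genes. The marker share of these libraries fell from 13.7 to 25.3% with vehicle to 0.951 to 3.63% with TGFb, which moves in the same direction as a rise of any fibroblast gene, and its part in the result was not tested other than by the subtraction.

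Lox held 100.2, 117 and 85.1 CPM in the fibroblast vehicle libraries of mice 1, 3 and 4 and 324, 274, 241 and 188 CPM with TGFb (mice 1 to 4). It rose 2.57-fold (log2 fold change 1.36, SE 0.15, adjusted p = 2.8e-06), and 1.08 remained after subtraction (adjusted p = 0.0094). Serpinh1 held 605, 588 and 653 CPM with vehicle and 962, 934, 1274 and 1172 CPM with TGFb. It rose 1.89-fold (log2 fold change 0.92, SE 0.13, adjusted p = 6.4e-05), and 0.66 remained after subtraction (adjusted p = 0.011). These were the 2 genes called both before and after subtraction, where 267 of 17469 genes were higher and 645 lower after it.

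Loxl2 rose from 16.8, 23.7 and 17.6 CPM to 29.4, 33.6, 36.2 and 28.3 CPM (log2 fold change 0.75, SE 0.17, adjusted p = 0.0039). Loxl3 rose from 146, 122 and 129 CPM to 197, 179, 242 and 199.9 CPM (log2 fold change 0.68, SE 0.14, adjusted p = 0.0017). Plod1 rose from 46.5, 45.3 and 41.6 CPM to 64.9, 65.2, 68.9 and 71.6 CPM (log2 fold change 0.65, SE 0.12, adjusted p = 9.0e-04). In these 3 genes all TGFb libraries lay above all vehicle libraries. Plod2 rose from 76.6, 95.2 and 58.9 CPM to 123, 122, 95.8 and 90.1 CPM, with overlap (log2 fold change 0.51, SE 0.14, adjusted p = 0.015). After subtraction the 4 log2 fold changes were 0.47, 0.39, 0.43 and 0.26, with adjusted p-values of 0.398, 0.191, 0.0954 and 0.523. Leaving out a mouse also ended some of these calls: Loxl2 without mouse 3 (adjusted p = 0.0531) or mouse 4 (0.0598), Loxl3 without mouse 3 (0.0665), and Plod2 without mouse 2 (0.0566) or mouse 4 (0.185).

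The other 4 genes did not pass in fibroblasts. P4ha3 held 7.15, 9.86 and 10.2 CPM with vehicle and 16.8, 12.4, 11.6 and 12.0 CPM with TGFb (log2 fold change 0.58, adjusted p = 0.094). Loxl4 gave 0.46 (adjusted p = 0.14), Plod3 gave 0.28 (adjusted p = 0.0995) and Loxl1 gave 0.11 (95% interval -0.20 to 0.42, adjusted p = 0.69). Without the shallow fibroblast EC library of mouse 1, which enters this comparison only through the joint fit, P4ha3, Loxl4 and Plod3 passed as well and 9 of the 10 genes were called. Calls over all genes rose too, from 3457 to 5005.

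Whether the fractions differed in their response was tested directly, as the fibroblast minus the epithelial log2 fold change. For TGFb, 7 of the 10 genes passed, all with the smaller log2 fold change in fibroblasts, where 23.2% of the 18364 genes tested were called in either direction. Rises in CPM were not compared. The median difference was -1.59 for the members and -0.210 for all genes. The differences were -3.25 for Loxl2 (SE 0.43, adjusted p = 3.0e-06), -2.92 for Lox (SE 0.29, adjusted p = 4.9e-08), -2.65 for Loxl3, -2.20 for P4ha3, -1.99 for Loxl1, -1.19 for Plod2 and -0.84 for Serpinh1 (adjusted p = 0.0134). Plod2 lost its call without mouse 3 (adjusted p = 0.0921), and Serpinh1 without mouse 2 (0.0576) or mouse 4 (0.102). Plod1 gave -0.52 (adjusted p = 0.0523), Loxl4 gave 0.11 (95% interval -0.46 to 0.68) and Plod3 gave 0.03 (-0.26 to 0.32). After subtraction 3 genes passed, namely Loxl2, Loxl3 and P4ha3, where 1580 of 18255 genes were called in either direction. Lox then gave -3.91 (adjusted p = 0.0696). The marker share moved in opposite directions in the 2 fractions with TGFb, up in epithelial and down in fibroblast libraries.

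**Figure D4:**
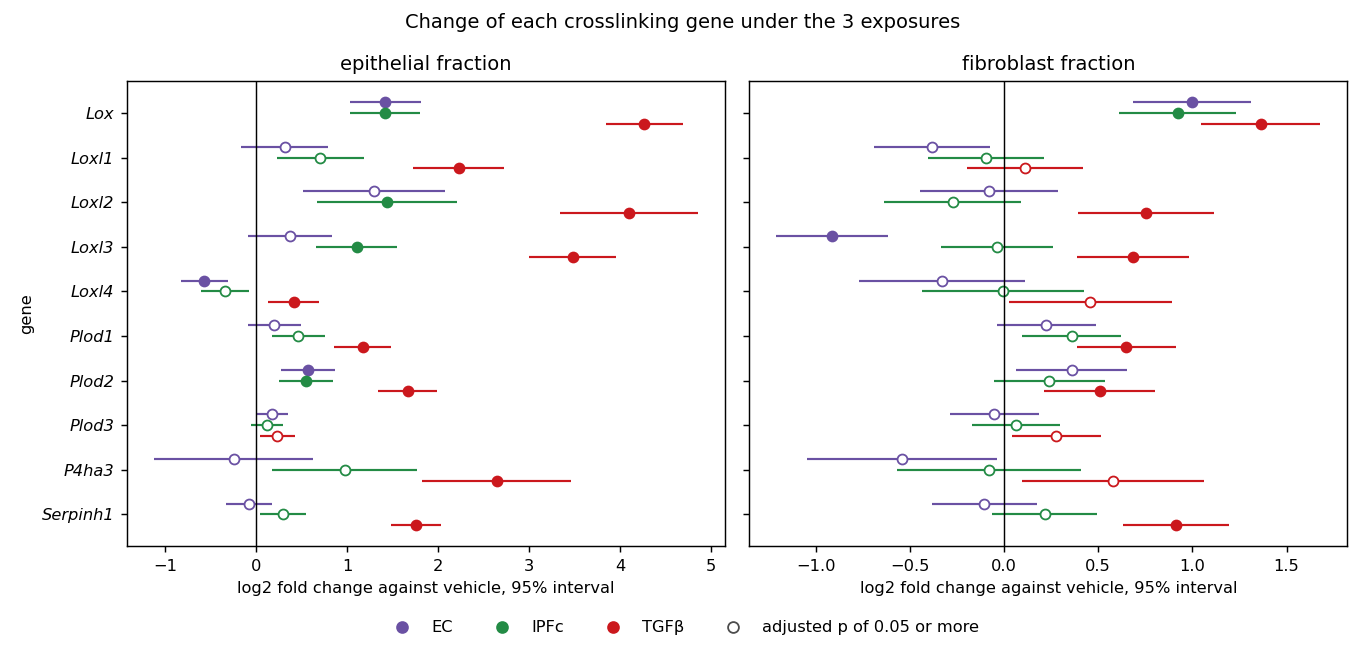
Log2 fold change of each gene against vehicle (horizontal axes, on different ranges for the epithelial fraction at left and the fibroblast fraction at right), with 95% intervals, for EC, IPFc and TGFb. Filled points passed an adjusted p of 0.05 and open points did not. Lox was filled for all 3 exposures in both fractions, and TGFb gave 9 filled points in the epithelial and 6 in the fibroblast fraction.

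The EC, IPFc and TGFb comparisons of a fraction share the same vehicle libraries. EC asked what the inflammatory factors of an exacerbation do to the same genes. In the epithelial fraction 2 of the 10 genes rose (1.96% of all genes higher) and 1 fell (2.44% lower), with a median log2 fold change of 0.256 for the members and 0.00312 for all genes. Lox rose from 8.33 to 11.6 CPM with vehicle to 22.2, 30.8, 17.0 and 33.7 CPM in mice 1 to 4, a 2.68-fold change (log2 fold change 1.42, SE 0.19, adjusted p = 4.7e-05) with no overlap. Plod2 held 17.6, 21.8, 17.4 and 28.3 CPM, higher than its vehicle library in 4 of 4 mice (log2 fold change 0.57, SE 0.14, adjusted p = 0.023). Loxl4 fell in 4 of 4 mice, to 12.3, 12.8, 13.9 and 9.99 CPM, below all its vehicle libraries (log2 fold change -0.57, SE 0.13, adjusted p = 0.0089). The call of Plod2 was lost without mouse 2 (adjusted p = 0.142) or mouse 3 (0.102), and that of Loxl4 without mouse 1 (0.0859).

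Loxl2 came close with 2.62, 3.61, 1.67 and 1.55 CPM, all above its vehicle libraries (log2 fold change 1.29, SE 0.37, adjusted p = 0.054). The other 6 genes gave log2 fold changes of -0.25 to 0.37. The marker share of the epithelial EC libraries was 5.48 to 17.1%, against 4.03 to 9.39% with vehicle. Lox stood at 7.13 to 18.5% of its fibroblast level with EC, above that share in 3 of 4 cultures, and its part in the other results was not tested other than by the subtraction. After subtraction Loxl4 remained lower (log2 fold change -0.61, adjusted p = 0.045), while Lox gave -0.25 (adjusted p = 0.97) and Plod2 gave -0.31 (adjusted p = 0.94).

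In the fibroblast fraction EC raised 1 gene and lowered 1 gene, where 4.28% of all genes were higher and 2.84% lower. The median log2 fold change was -0.0920 for the members and -0.0217 for all genes. Lox held 177, 229, 238.1 and 182 CPM, above all 3 vehicle libraries (log2 fold change 1.00, SE 0.15, adjusted p = 8.4e-04). Its value was 1.38 after subtraction (adjusted p = 0.020). Loxl3 held 67.7, 78.8, 79.1 and 58.3 CPM, below all 3 vehicle libraries (log2 fold change -0.91, SE 0.14, adjusted p = 0.0011), and gave -0.55 after subtraction (adjusted p = 0.27). The other 8 genes gave log2 fold changes of -0.54 to 0.36, and the epithelial marker share of these libraries was 34.0 to 52.0%.

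The response to EC did not differ significantly between the fractions for any member in edgeR's quasi-likelihood test, where 0.37% of all genes were called. At an unadjusted p under 0.05, 2 members differed, Loxl2 and Loxl3, with the share of all genes at that threshold not counted. DESeq2, and edgeR with no filter on low counts, called the same 2. Calls over all genes rose from 68 to 595 with each of them. Differences ran from -1.40 for Loxl2 (SE 0.45, adjusted p = 0.13) to 0.28 for Loxl4, and Loxl3 gave -1.28 (SE 0.38, adjusted p = 0.099).

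IPFc contains TGF-β among other factors, so it was set both against vehicle and against TGFb alone. In the epithelial fraction IPFc raised 4 of the 10 genes and lowered none, where 2.57% of all genes were higher and 1.53% lower. The median log2 fold change was 0.628 for the members and 0.00607 for all genes. Lox held 25.2, 31.9, 21.2 and 24.6 CPM, above all vehicle libraries (log2 fold change 1.42, SE 0.19, adjusted p = 6.2e-05), which nearly equalled its change with EC. Loxl3 held 26.3, 23.5, 7.74 and 11.8 CPM, higher than its vehicle library in 4 of 4 mice but overlapping between groups (log2 fold change 1.11, SE 0.21, adjusted p = 0.0034).

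Loxl2 held 2.67, 4.21, 1.85 and 1.71 CPM with IPFc (log2 fold change 1.43, SE 0.37, adjusted p = 0.029), and Plod2 held 21.6, 23.8, 19.4 and 18.6 CPM (log2 fold change 0.55, SE 0.14, adjusted p = 0.030). Both lay above all their vehicle libraries. Both calls were lost without mouse 1, 2 or 3 (adjusted p of 0.0722 to 0.295). Without mouse 1 or mouse 2 the count of members called was 2, and calls over all genes fell from 739 to 352 and 377. Mice 1 and 2, with marker shares of 14.1 and 15.3%, had the highest IPFc levels of every member. Mouse 3, with 5.18%, had the lowest levels of Lox, Loxl1, Loxl3, P4ha3 and Serpinh1. Mouse 4, with 10.9%, had the lowest levels of Loxl2, Loxl4, Plod1, Plod2 and Plod3. The part of the marker share in this order was not tested. The 6 genes not called gave log2 fold changes of -0.34 for Loxl4 to 0.97 for P4ha3. After subtraction no member was called (adjusted p of 0.274 or more), and 2 of the 4 IPFc libraries were at 0 for Lox.

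In the fibroblast fraction Lox was the 1 member that rose with IPFc and none fell, where 0.305% of all genes were higher and 0.144% lower. The median log2 fold change was 0.0296 for the members and -0.00262 for all genes. Lox held 222, 216, 191 and 159 CPM, above all 3 vehicle libraries (log2 fold change 0.92, SE 0.15, adjusted p = 0.0068). Its value was 0.90 after subtraction (adjusted p = 0.30), and the call was lost without mouse 3 (adjusted p = 0.114) or mouse 4 (adjusted p = 0.209). The other 9 genes gave log2 fold changes of -0.27 for Loxl2 to 0.36 for Plod1. No member differed between the fractions in its response to IPFc by edgeR's test, where 0.049% of all genes were called. At an unadjusted p under 0.05, 4 members differed, with the share of all genes at that threshold not counted. DESeq2 called 1, Loxl2, and edgeR with no filter on low counts called 2, Loxl2 and Loxl3. Calls over all genes rose from 9 to 46 and 51 with these.

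Against TGFb alone, IPFc left 9 of the 10 genes lower in the epithelial fraction, all but Plod3, where 37.2% of all genes were called in either direction. The median log2 difference was -1.49 for the members and -0.0399 for all genes. Lox differed by -2.85 (SE 0.19, adjusted p = 2.9e-10), Loxl2 by -2.66, Loxl3 by -2.37, P4ha3 by -1.67, Loxl1 by -1.52, Serpinh1 by -1.46, Plod2 by -1.11, Loxl4 by -0.76 and Plod1 by -0.71 (SE 0.15, adjusted p = 7.2e-04). All 3 TGFb libraries lay above all 4 IPFc libraries for each of these 9 genes, with the share of all genes so placed not counted. After subtraction Lox, Loxl2 and Loxl4 remained lower with IPFc, and Plod3 was higher (log2 difference 0.42, adjusted p = 0.016), where 4608 of 17609 genes were called. The subtraction took less of the fibroblast level from IPFc libraries (5.18 to 15.3%) than from TGFb libraries (24.4 to 30.6%). The value of Plod3 after it is therefore not a measured rise.

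In the fibroblast fraction 5 genes were lower with IPFc than with TGFb, where 17.4% of all genes were called in either direction. The median log2 difference was -0.452 for the members and 0.00852 for all genes. The differences were -1.03 for Loxl2 (SE 0.15, adjusted p = 9.7e-05), -0.72 for Loxl3 (SE 0.13), -0.70 for Serpinh1 (SE 0.12), -0.66 for P4ha3 (SE 0.21, adjusted p = 0.034) and -0.44 for Lox (SE 0.13, adjusted p = 0.026). Loxl2, Loxl3 and Serpinh1 did not overlap between the groups, and P4ha3 and Lox did. The count rose to 9 without the fibroblast EC library of mouse 1, with Loxl4, Plod1, Plod2 and Plod3 lower as well, and fell to 3 when mouse 2, 3 or 4 was left out. Calls over all genes moved likewise, from 3141 to 4346 without that library and to 1985 to 2283 without 1 of those mice. Serpinh1 alone was called after subtraction (adjusted p = 0.0495), where 713 of 17469 genes were called.

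Other genes of collagen processing and 13 matrix genes were followed in the same fits. The matrix list holds collagens and elastin, and also genes such as Fn1, Sparc and Fmod, so it is not a list of enzyme substrates only. With TGFb, 17 of 24 tested genes of collagen processing rose in the epithelial fraction and 2 fell, against 21% and 20.1% of all genes. They included Tll1, a protease that trims procollagen ends (log2 fold change 5.23, adjusted p = 2.6e-10), Colgalt1, a collagen galactosyltransferase (1.23, adjusted p = 9.2e-10), Fkbp10, a collagen-binding prolyl isomerase (2.83) and Bmp1, a procollagen C-proteinase (1.60). All 13 matrix genes were called higher there, but 3 of them (Eln, Postn and Fmod) had no reads in the epithelial vehicle libraries and so passed the filter on low counts through the groups in which they were read. The other 10 included Col5a2 (4.06), Col11a1 (4.79) and the fibronectin gene Fn1 (4.17). In the fibroblast fraction 8 of 23 processing genes rose with TGFb and 2 fell, and 12 of the 13 matrix genes rose (including those 3, whose reads again lay mainly in the TGFb libraries), against 6.39% higher and 12.8% lower over all genes, with Col1a1 at a log2 fold change of 1.74 (adjusted p = 2.4e-07). The median log2 fold change of the processing genes was 1.16 in the epithelial and 0.00687 in the fibroblast fraction. After subtraction 8 of 24 processing genes were higher and 3 lower in the epithelial fraction (median 0.452), against 1919 higher and 2698 lower of 17609 genes. In the fibroblast fraction 4 of 22 were then higher and 1 lower (median 0.0179), against 267 higher and 645 lower of 17469 genes. Of the matrix genes that could still be tested, 6 of 10 were then called in the epithelial fraction and 9 of 13 in the fibroblast fraction, against the same counts.

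With EC none of the 13 matrix genes was called higher in either fraction, 1 fell in the epithelial fraction (Sparc, -0.66) and 2 fell in the fibroblast fraction, against 1.96% higher and 2.44% lower and 4.28% higher and 2.84% lower over all genes. In the epithelial fraction 5 fibrillar collagen genes (Col1a1, Col1a2, Col3a1, Col5a1 and Col5a2, named after their values were seen) had log2 fold changes of 0.50 to 0.53 that did not pass (adjusted p of 0.178 to 0.234), higher in 3 or 4 of 4 mice. Subtraction turned Col1a1 to -1.115 (SE 1.98) and Col1a2 to -1.21 (SE 2.08), neither called, and left Col3a1 untestable. The median was 0.252 over the 13 matrix genes before subtraction. It was -0.706 over the 10 that could still be tested after it. The 2 that fell in the fibroblast fraction were Fbln5, an elastic fibre gene (log2 fold change -1.39, adjusted p = 7.5e-06), and Col11a1 (-0.77, adjusted p = 0.037). Of 11 genes known to respond to low oxygen, 6 rose with EC in the epithelial fraction and 7 in the fibroblast fraction, and none fell. They included Egln3, which encodes an oxygen-sensing prolyl hydroxylase (1.36 and 0.86), Pgk1 (0.64 and 0.75) and Pdk1 in the epithelial fraction (0.79). After subtraction 4 and 1 of these calls were left, where 136 of 17609 epithelial and 28 of 17469 fibroblast genes were called higher. Any link between this list and the changes of the members was not tested. With TGFb this list split, with 4 genes rising and 4 falling in the epithelial fraction, against 21% higher and 20.1% lower over all genes. In the fibroblast fraction 3 rose and 4 fell, against 6.39% higher and 12.8% lower. With IPFc, 7 of the 13 matrix genes, 5 of the 24 processing genes and 1 of the 11 oxygen-response genes (Egln3) rose in the epithelial fraction and 1 oxygen-response gene fell (Ndrg1, -0.38, adjusted p = 0.0067), against 2.57% higher and 1.53% lower over all genes. Once the share was subtracted, 1 oxygen-response gene was called higher, against 113 higher and 58 lower of 17609 genes. None of the 24 processing genes was called then, nor any of the 10 matrix genes that could still be tested. Among fibroblast libraries 1 oxygen-response gene rose, Slc2a1 (0.59, adjusted p = 0.022), against 0.305% of all genes. That call was not left after subtraction.

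Genes that TGF-β is known to induce gave a check of the exposure, to be read against the same percentages. Of 8 such genes, 7 rose and 1 fell in the epithelial fraction with TGFb (21% higher and 20.1% lower over all genes), led by Ccn2 (log2 fold change 2.09) and Pmepa1 (2.81). In the fibroblast fraction 4 rose and 2 fell (6.39% higher and 12.8% lower over all genes). With IPFc 2 rose in the epithelial fraction (2.57% of all genes higher), Pmepa1 (1.45, adjusted p = 1.1e-07) and Skil (0.54, adjusted p = 0.0024). None rose in the fibroblast fraction (0.305% of all genes higher). With EC none passed in either fraction.

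The genes whose level moved most like each member were listed over the 15 fibroblast libraries, by Pearson r of log2 CPM among 10762 genes with a mean of at least 5 CPM, as a description with no test. These libraries share exposures, mice and the epithelial share, so the values describe this set only. Serpinh1 ran with Dbn1 (r = 0.983), Homer3 and Tead2, and Loxl3 with Sparcl1 (r = 0.980), Axl and Lbh. Lox ran with Dpy19l1 (r = 0.922), Egln3 (0.901) and Slc41a2, Loxl1 with Cbarp (0.938), Cacng7 and Fgfrl1, and Loxl2 with Apcdd1 (0.939), Lrrk1 and the collagen IV gene Col4a2 (0.923). Loxl4 ran with Lrp1 (0.965), Map1b and Gas7, Plod1 with B4galt1 (0.911), Antxr1 and Chsy1, and Plod2 with Slitrk6 (0.892), Pla2g4a and Plekha2. Plod3 ran with Arl8a (0.952), the collagen prolyl hydroxylase family gene P3h4 (0.947) and Marcks, and P4ha3 with Agbl3 (0.894), Fam114a1 and B3gnt9. No member was among the 3 genes most like another member.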

How the data were processed

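Total RNA of 30 libraries was sequenced after directional library preparation. The authors deposited raw read counts for 55487 Ensembl genes per library. Per the labels and the submitters' processing notes, reads were trimmed with Trimmomatic 0.30 and DESeq2 1.34.0 was used downstream. The aligner and counter are not given in the sources used here, and the genome build is given differently in the study's methods (GRCm38) and the labels (GRCm39), so coordinates printed here are those of RefSeq on GRCm38.p6 and were used for names, lengths and promoters only.

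From the counts, edgeR 4.0.16 in R 4.3.3 (quasi-likelihood test, TMM scaling, mouse number as a block) was fitted to the 15 libraries of each fraction (18024 epithelial and 18048 fibroblast genes with a mean of at least 1 read), and to all 30 libraries (18364 genes) for comparisons between fractions. P-values were adjusted by Benjamini-Hochberg over all genes tested, with a threshold of 0.05. The fits left 8, 8 and 19 residual degrees of freedom. The block was taken from the mouse number in the labels, which marks the epithelial donor, and libraries of the same mouse deviated together (mean correlation of deviations from the group means 0.283 in the epithelial and 0.305 in the fibroblast fraction). No 2 libraries of a group agreed within sampling noise. The fibroblasts of all cultures came from 1 line, so their p-values measure the spread between cultures.

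The marker share was the median, over markers with at least 50 CPM in the other fraction's library of the same culture, of the ratio of both libraries. The group mean stood in for the 2 partner libraries not analysed here. That share of the other library was subtracted, and the fits were repeated on what remained. Alternatives included DESeq2 1.42.0, other scalings and filters, no block, leaving out each mouse, and a suffix in the sample titles as a covariate. All 10 genes were named. Of other lists, up to 4 called genes with the smallest adjusted p were given, unless marked as named after their values were seen. Scripts were tested on simulated data. The members and lists were chosen with earlier results of these data known.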

Additional observations from a re-analysis of the deposited data

Results flagged for a closer look

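In the epithelial vehicle group, Loxl1 stood apart in mouse 1, at 13.54 CPM beside 7.85 to 8.07 CPM in the other 3 mice. That library also had the highest fibroblast marker share of its group (9.39% beside 4.03 to 5.64%). In the fibroblast TGFb group, P4ha3 stood apart in mouse 1, at 16.82 CPM beside 11.58 to 12.38 CPM. These were 2 of 60 groups of libraries examined for a library far from the others, and chance marks about 1 group in 20.

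The response to TGFb differed between the fractions for 7 genes, by a test of the difference itself. The fibroblast minus epithelial log2 fold change was -2.922 for Lox, -1.991 for Loxl1, -3.25 for Loxl2, -2.646 for Loxl3, -1.192 for Plod2, -2.195 for P4ha3 and -0.8441 for Serpinh1. The marker share rose in the epithelial and fell in the fibroblast TGFb libraries, and its part in these differences was not tested other than by the subtraction. That left Loxl2, Loxl3 and P4ha3 called, where 1580 of 18255 genes were called.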

How the results depend on the processing

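For the member values called in the text and 2 near the threshold (Loxl2 with EC and Plod3 with TGFb in the epithelial fraction), 938 of 1020 values under the alternatives kept direction and side of the threshold, 67 lost and 6 gained a call, and 9 changed sign, all 9 after subtraction of the other fraction's share. Of the other 66 member values, which were not called, 19 changed sign after subtraction and 3, 5, 8 and 7 without mouse 1, 2, 3 and 4, and new calls numbered 7 by DESeq2, 8 with no filter, 6 in fits of only the groups compared (of 39) and 7 without the shallow fibroblast EC library (of 26). Of those 9, 8 were in the epithelial fraction: Lox with EC (-0.25) and IPFc (-0.12), Plod2 with EC (-0.31), Loxl1 (-0.21), Plod3 (-0.35) and Serpinh1 (-0.54) with TGFb, and Loxl1 (1.86) and Serpinh1 (0.37) for IPFc against TGFb. The last was the difference in the TGFb response of Serpinh1 (0.82). The Loxl1 values rest on libraries at 0. After subtraction the members called were 1, 0, 5 and 4 in the epithelial fraction (EC, IPFc and TGFb against vehicle, IPFc against TGFb, with 3, 4, 9 and 9 before). In the fibroblast fraction they were 1, 0, 2 and 1 (2, 1, 6 and 5 before), and 3 for the TGFb response difference (7 before). The 5 were 4 higher and 1 lower (Plod3), and the 4 were 3 lower and 1 higher (Plod3). Of 17609 epithelial genes tested after subtraction, 1919 were higher and 2698 lower with TGFb. For IPFc against TGFb, 2721 were higher and 1887 lower. With EC and IPFc 337 and 171 of them were called. In the fibroblast fraction the counts over 17469 genes were 35, 8, 912 and 713, in the order given for the members. For the TGFb response difference 1580 of 18255 genes were called.

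Without the replicate block, 1 member was called for epithelial EC, 1 for epithelial IPFc, 0 for fibroblast IPFc and 3 for fibroblast IPFc against TGFb, and the block moved no other count of members by over 1.5 times. With the title suffix as a covariate epithelial IPFc gave 2, and a fit of only the groups compared gave 9 for fibroblast IPFc against TGFb. For the response differences to EC and IPFc, DESeq2 called 2 and 1 members and no filter on low counts 2 and 2, against 0 and 0. Calls over all genes rose as well, to 595 and 46 by DESeq2 and to 595 and 51 with no filter.

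Leaving out a mouse, or the shallow fibroblast EC library, gave 2 to 5 members for epithelial IPFc, 0 to 1 for fibroblast IPFc, and 3 to 9 for fibroblast IPFc against TGFb, and 4 to 9 for fibroblast TGFb. The cause of these changes was not tested. Depth limits Loxl2 and P4ha3, with 4 to 20 and 8 to 18 reads per epithelial vehicle library.

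Counts over all genes, given in the text as a background, moved as well. Epithelial EC (794 genes) fell to 391 without the replicate block, to 421 to 727 without 1 mouse and to 337 after subtraction, and epithelial IPFc (739) gave 297, 352 to 801 and 171, and 1118 with no filter. Epithelial TGFb (7400) gave 4617 after subtraction. Fibroblast EC (1284) gave 321 without the block, 217 to 2053 without 1 mouse or the shallow library, 35 after subtraction, 2040 by DESeq2, 2048 with no filter and 537 with the title suffix. Fibroblast IPFc (81) gave 35, 14 to 263, 8, 183, 251 and 44 in the same order, and 229 in a fit of only the groups compared. Fibroblast TGFb (3457) gave 2148 to 5005 without 1 mouse or that library and 912 after subtraction, and fibroblast IPFc against TGFb (3141) gave 1985 to 4346, 713, and 5197 with only the groups compared. The response differences gave 4 to 595 genes for EC (68), 5 to 51 for IPFc (9) and 1580 to 4883 for TGFb (4267). Subtraction moved the median of all genes from -0.0217 to -0.127 for fibroblast EC and from -0.21 to -0.0113 for the TGFb response difference, and no filter moved the latter to -0.106.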
